A study of Mus musculus with 6 samples.

Results

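The genes described here are 40 mouse genes of the DNA damage checkpoint and of DNA repair, chosen by name as 14 checkpoint genes, 14 genes of homologous recombination, 5 of end joining, 3 of the Fanconi pathway and 4 of excision repair. All 40 were found among the 35856 genes matched in the files, and all 40 were among the 15933 genes that passed the filter on low counts and were tested. The series profiled total RNA, made into stranded libraries after removal of ribosomal RNA, from cells of Mdm2fl/fl p53-/- mice. Mdm2 is the ubiquitin ligase that restrains p53, and the question of the series is what its deletion changes in cells that have no p53. The 3 libraries labelled 4OHT came from cells given 4-hydroxytamoxifen, at 1 mM per the labels, and carry the label Mdm2 deleted. The 3 libraries labelled EtOH came from cells given the ethanol vehicle. Each arm has 1 library labelled fibroblasts (ear fibroblasts in culture, 48 h of exposure), 1 labelled lymphoma (a T cell lymphoma in short-term culture, 6 h) and 1 labelled sarcoma (a sarcoma in short-term culture, 48 h). Cells had received a retrovirus for GFP with CreERT2, a Cre recombinase that 4-hydroxytamoxifen switches on, or for GFP alone. The labels do not say which vector each library carried, and none is named as a GFP-only culture that received 4-hydroxytamoxifen, so the labelled deletion and the exposure cannot be told apart.

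The DNA damage response begins with kinases that sense damage. Atm answers to double-strand breaks and Atr to stretches of single-stranded DNA, and both pass the signal to the effector kinases Chek2 and Chek1, which hold the cell cycle. Double-strand breaks are then closed by homologous recombination, which copies the sister chromatid, or by end joining, which religates the ends. The Fanconi pathway unhooks crosslinks between DNA strands, and excision repair removes damaged bases or short stretches of a strand. Much of this response acts on proteins, through phosphorylation and ubiquitin, which RNA counts do not measure.

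In 2 respects the RNA did not bear out the labels, so the names below are those of the labels only. Mdm2 had 30.5, 31.1 and 31.1 CPM (estimated counts scaled to a common library size by TMM) in the libraries labelled 4OHT, against 28.4, 28.0 and 28.5 CPM in those labelled EtOH, and was not lower (log2 fold change 0.13, edgeR adjusted p = 0.0539). That count was summed over the whole gene, so it cannot show whether part of Mdm2 was deleted. Markers of mesenchyme summed to between 13210 and 13468 CPM in the libraries labelled 4OHT and between 20717 and 21138 CPM in those labelled EtOH, lymphoma included, while markers of T cells summed to at most 4.73 CPM in libraries labelled 4OHT and 2.26 CPM in those labelled EtOH, with 4 of 10 at 0 in all 6 libraries. Of the mesenchyme markers 8 of the 9 tested were lower in the libraries labelled 4OHT, and all 15 genes of an interferon response list were higher, with a median log2 fold change of 3.91 and sums of 4658 to 4849 CPM against 380 to 394 CPM. Epithelial markers summed to 23.7 to 25.8 CPM under 4OHT and 9.05 to 10.1 CPM under EtOH. The part of these shifts in the results below was not tested. Total estimated counts per library ran between 26243064 and 37517726.

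Of the 40 genes, 12 were higher and 14 were lower in the libraries labelled 4OHT (edgeR quasi-likelihood test with the cell label as a block, Benjamini-Hochberg adjusted p under 0.05), and 14 were not called. Over all genes tested, 25.0% were called higher and 24.6% lower, so the members' 30.0% and 35.0% stand beside a background in which about as many genes went up as down. The list was chosen with earlier results of these data known and was not itself tested. No separate cultures are named in the labels, so the spread within an arm, and each p-value, may reflect technical variation only. Its changes were small: the median absolute log2 fold change was 0.17 over the 40 genes and 0.22 over all genes, 13 genes reached 0.25 (45.4% of all genes did), and only Atm reached 0.5 (19.5%) or 1 (6.21%). The median signed log2 fold change was 0.01 for the 40 genes and 0.02 for all genes. In 15 of the genes the 3 libraries labelled 4OHT all lay above the 3 labelled EtOH, and in 13 they all lay below, against 27.7% and 27.8% of all genes tested. In bulk RNA, fewer cells of a type and less RNA per cell cannot be told apart.

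**Figure D1:**
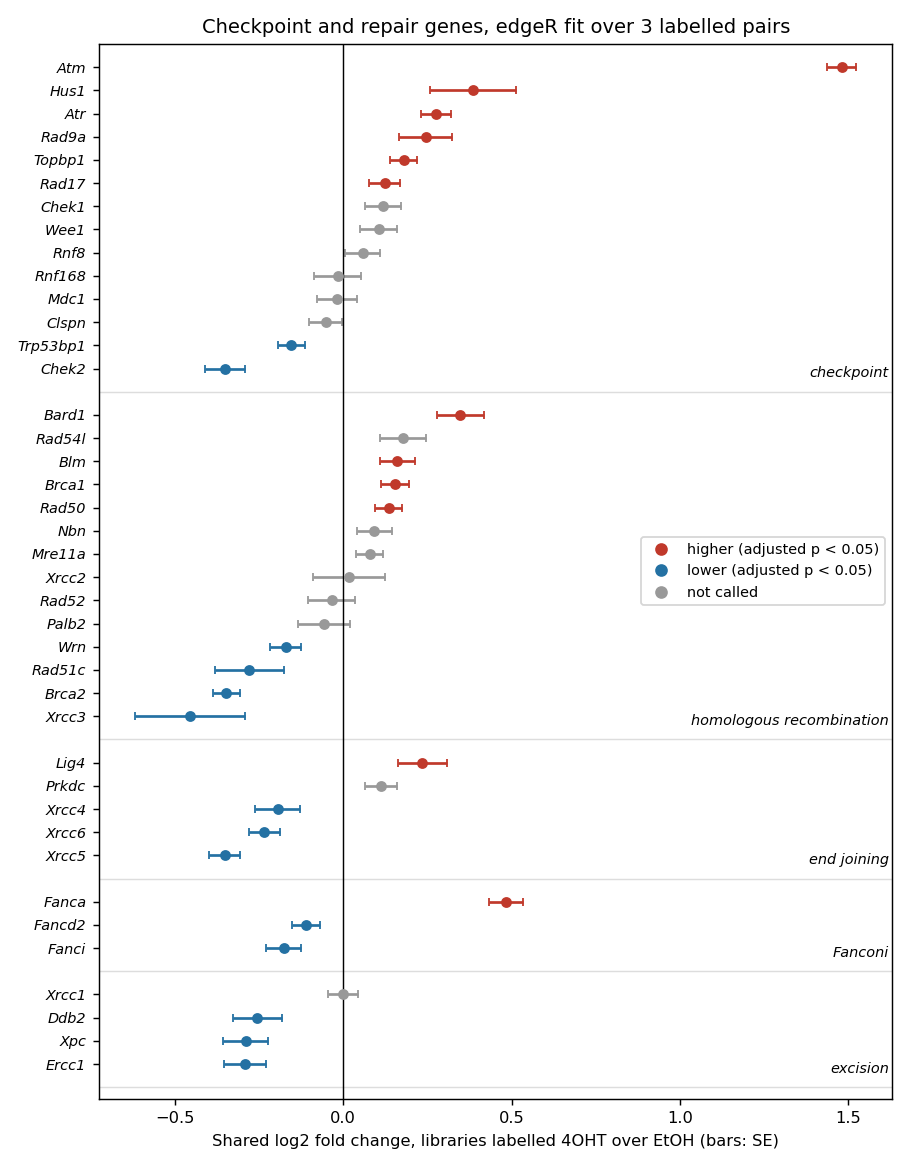
Shared log2 fold change of each of the 40 genes, libraries labelled 4OHT over libraries labelled EtOH (x axis, log2 scale, edgeR fit over 3 labelled pairs; bars are SE), grouped by pathway and coloured by call. Atm, at 1.48, stands apart from the other genes, which lie between -0.45 and 0.48, and 3 of the 4 excision genes are called lower.

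Without the pair labelled lymphoma, whose label the markers go against most, 7 of the 40 genes were called higher and 7 lower, beside 20.4% and 19.9% of all genes in the same fit. Both fits with limma on TPM (deposited levels per length) called Atm, Fanca and Ercc1 and no other member. These 3 genes alone kept their calls under all 12 alternative settings. The promoters of these 3 genes are shown for that reason, as RefSeq gives the 250 bases before the start on GRCm38.p6, 5′ to 3′ on the gene's own strand. These bases lie on the minus strand at chr9:53536672-53536921 for Atm and at chr8:123318577-123318826 for Fanca. For Ercc1 they lie on the plus strand at chr7:19344821-19345070. The start used is that of RefSeq. In GENCODE M21, Ercc1 starts at 19344778, so all of its bases shown lie within that gene. Atm starts there at 53536740, so part of its bases shown lie within Atm. Capitals mark CCAAT, or ATTGG where it reads on the opposite strand.
Atm: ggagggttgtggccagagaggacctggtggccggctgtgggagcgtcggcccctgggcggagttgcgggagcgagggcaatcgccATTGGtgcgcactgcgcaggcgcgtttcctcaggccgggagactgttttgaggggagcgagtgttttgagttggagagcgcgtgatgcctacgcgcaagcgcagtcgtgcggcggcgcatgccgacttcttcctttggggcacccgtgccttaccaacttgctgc
Fanca: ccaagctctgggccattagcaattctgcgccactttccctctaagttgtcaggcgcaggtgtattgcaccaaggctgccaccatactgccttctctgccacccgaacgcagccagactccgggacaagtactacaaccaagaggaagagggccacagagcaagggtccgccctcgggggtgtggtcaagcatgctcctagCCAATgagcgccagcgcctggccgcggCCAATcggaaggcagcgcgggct
Ercc1: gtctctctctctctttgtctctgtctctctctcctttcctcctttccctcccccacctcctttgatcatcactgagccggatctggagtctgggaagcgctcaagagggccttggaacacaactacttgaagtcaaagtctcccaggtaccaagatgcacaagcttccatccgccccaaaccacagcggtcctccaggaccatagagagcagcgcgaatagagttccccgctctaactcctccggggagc
Atm had 1 match, 165 bases before the start, Fanca had 2, at 50 and 23 bases, and Ercc1 had none. None of the 3 held any of the other motifs searched.

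Among the checkpoint genes, 6 of 14 rose (Atm, Atr, Rad17, Rad9a, Hus1 and Topbp1), 2 fell (Chek2 and Trp53bp1) and 6 were not called, with a median log2 fold change of 0.11. That is 42.9% higher and 14.3% lower, beside 25.0% and 24.6% of all genes tested. The 6 that rose hold both apical kinases, 2 members of the ring-shaped checkpoint clamp, the loader of that clamp and an activator of Atr. The calls of Hus1, Rad9a and Rad17, the clamp members and loader, were each lost without the pair labelled lymphoma. Atm (chromosome 9, 53439149 to 53536740 on GRCm38) was counted at 335, 333 and 333 CPM in the libraries labelled 4OHT of fibroblasts, lymphoma and sarcoma, against 124, 115 and 120 CPM in their counterparts labelled EtOH. The arms did not overlap, and the 3 values within each arm were close together, though that spread may be technical. The fold was 2.79 (log2 fold change 1.48 ± 0.04, SE, edgeR adjusted p = 1.41e-10), and the value ran between 1.38 and 1.50 over the alternatives. Of all genes tested, 463 (2.91%) had a log2 fold change at least as high. In every library at least 99.0% of the Atm counts fell on 1 target, Atm-201, which is 9201 bases long, so 1 target carried the count in both arms.

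Atr rose by 0.28 ± 0.04 on the log2 scale, to 93.9, 92.2 and 88.6 CPM in libraries labelled 4OHT, against 73.0, 77.3 and 76.6 CPM in libraries labelled EtOH (edgeR adjusted p = 0.000302). Its arms were apart too, but the fold of 1.21 was far below that of Atm. Hus1, a subunit of the clamp, had the second largest rise of the checkpoint genes at 0.39 ± 0.13 (edgeR adjusted p = 0.0253), with 6.00, 6.61 and 5.53 CPM under 4OHT and 4.11, 4.25 and 5.44 CPM under EtOH. The pair labelled sarcoma hardly differed, and the estimate was 0.59 without that pair. Leaving out the pair labelled fibroblasts or lymphoma instead gave 0.29 and 0.27, past no threshold (edgeR adjusted p = 0.0877 and 0.172). Rad9a, the partner of Hus1 in the clamp, rose by 0.24 ± 0.08 (edgeR adjusted p = 0.0216), and its call was likewise lost without the pair labelled lymphoma or sarcoma. Rad17, which loads the clamp, passed the threshold narrowly (0.12 ± 0.05, edgeR adjusted p = 0.0473) and kept its call under 2 of the 12 alternatives, none of them one that left out a pair.

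Topbp1, which activates Atr, was the most abundant of the 40 genes per length. Its counts were 355, 353 and 346 CPM under 4OHT and 308, 312 and 311 CPM under EtOH. The arms did not overlap, and the rise was 0.18 ± 0.04 (edgeR adjusted p = 0.00334). Like every called member but Atm, Fanca and Ercc1, it lost its call in both fits on TPM with limma (adjusted p = 0.0824 and 0.0859).

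Chek2, the effector kinase below Atm, moved the other way from Atm. Its values were 16.8, 17.1 and 16.4 CPM under 4OHT and 20.9, 21.4 and 21.8 CPM under EtOH, with no overlap, and it fell by 0.35 ± 0.06 on the log2 scale (edgeR adjusted p = 0.000472). Trp53bp1, which binds modified chromatin at breaks and favours end joining, fell by 0.15 ± 0.04 (edgeR adjusted p = 0.00852), but its difference was 0.01 in the other direction, and not called, on the log2(TPM + 1) scale, and its adjusted p was 0.0550 without the pair labelled lymphoma. The effector kinase below Atr, Chek1, had a log2 fold change of 0.12 and was not called (edgeR adjusted p = 0.0894), though without the pair labelled sarcoma it was 0.18 and called (edgeR adjusted p = 0.0225).

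The other uncalled checkpoint genes lay near 0. Wee1, the kinase that restrains Cdk1, was at 0.11 and Clspn, the adaptor between Atr and Chek1, at -0.05. Of the factors that mark chromatin beside a break, the ubiquitin ligases Rnf8 and Rnf168 were at 0.06 and -0.02 and the scaffold Mdc1 at -0.02, which was -0.13 and called without the pair labelled sarcoma (edgeR adjusted p = 0.0447). Summed over the 14 checkpoint genes, counts ran between 1211 and 1225 CPM in libraries labelled 4OHT and between 957 and 959 CPM in those labelled EtOH. Over the 39 genes without Atm the sums were 1858 to 1870 CPM under 4OHT and 1839 to 1845 CPM under EtOH, so nearly all of the difference in summed counts of the 40 genes was that of Atm.

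**Figure D2:**
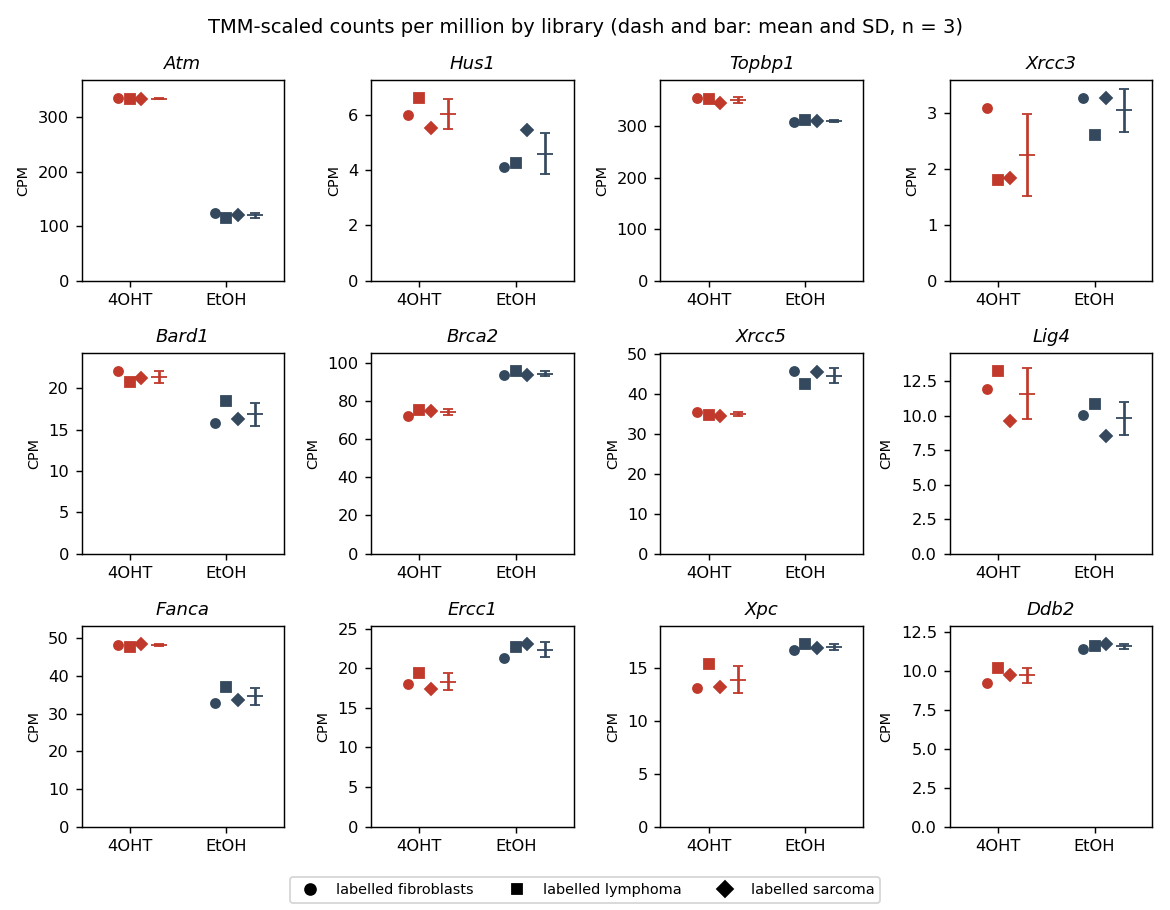
CPM after TMM scaling in each library (y axis from 0) for 12 of the genes, libraries labelled 4OHT left and EtOH right; symbols give the cell label, and the dash and bar give mean and SD over 3 libraries. Atm separates by far the most, Brca2 and Xrcc5 are lower in all 3 libraries labelled 4OHT, and the arms of Xrcc3 and Lig4 overlap.

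Among the genes of homologous recombination, 4 of 14 rose (Brca1, Bard1, Rad50 and Blm), 4 fell (Brca2, Rad51c, Xrcc3 and Wrn) and 6 were not called, with a median of 0.05, shares near those of all genes tested. Partners of one complex did not all move alike. Bard1, which forms a ubiquitin ligase with Brca1, was counted at 22.1, 20.7 and 21.3 CPM under 4OHT and at 15.8, 18.4 and 16.4 CPM under EtOH. All 3 libraries labelled 4OHT lay above, and Bard1 rose by 0.35 ± 0.07 (edgeR adjusted p = 0.00155). Brca1 itself rose by 0.15 ± 0.04, to 83.5, 83.2 and 84.8 CPM under 4OHT against 77.9, 73.0 and 75.3 CPM under EtOH (edgeR adjusted p = 0.00873), a call lost without the pair labelled lymphoma (edgeR adjusted p = 0.0756).

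Brca2, a central factor of homologous recombination, fell. Its values were 72.4, 75.3 and 75.0 CPM under 4OHT, against 93.7, 95.8 and 93.8 CPM under EtOH. The arms were well apart, and the log2 fold change was -0.35 ± 0.04 (edgeR adjusted p = 2.52e-05). Palb2, which joins Brca1 to Brca2, had a log2 fold change of -0.06 (edgeR adjusted p = 0.569), although its counts were divided differently among its targets, as given below.

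Xrcc3, which acts in homologous recombination, had the largest fall of the recombination genes but also the fewest reads, with 91, 48 and 51 estimated counts in libraries labelled 4OHT and 93, 77 and 123 in those labelled EtOH. That is 3.09, 1.80 and 1.84 CPM under 4OHT and 3.26, 2.60 and 3.27 CPM under EtOH. The fibroblast-labelled library under 4OHT lay within the EtOH values, so the arms overlapped, and the log2 fold change was -0.45 ± 0.16 (edgeR adjusted p = 0.0378). Without the pair labelled sarcoma it was -0.27, without that labelled fibroblasts -0.71, and the call was lost without the sarcoma or the lymphoma pair (edgeR adjusted p = 0.262 and 0.0971). Rad51c fell by 0.28 ± 0.10 (edgeR adjusted p = 0.0401) and also lost its call without the pair labelled fibroblasts or lymphoma. Xrcc2, which acts in the same pathway, was at 0.02 and not called.

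The complex that first binds broken ends is made of Mre11a, Rad50 and Nbn. Mre11a, its nuclease and the most abundant recombination gene per length, had 75.3, 75.4 and 73.6 CPM under 4OHT and 71.3, 70.3 and 70.8 CPM under EtOH. The arms did not overlap, but the difference of 0.08 ± 0.04 was not called (edgeR adjusted p = 0.122). Rad50 rose by 0.13 ± 0.04 (edgeR adjusted p = 0.0180), and Nbn, at 0.09, was not called. Of the RecQ helicases, Blm rose by 0.16 ± 0.05 (edgeR adjusted p = 0.0224) and Wrn fell by 0.17 ± 0.04 (edgeR adjusted p = 0.00804). The annealing factor Rad52 was at -0.03, and Rad54l, a DNA motor protein, at 0.18 (edgeR adjusted p = 0.0506), neither called. Without the pair labelled lymphoma, Rad50 (0.11) and Wrn (-0.17) lost their calls and Rad54l gained one (0.26, edgeR adjusted p = 0.0300), and without that labelled sarcoma Blm (0.09) lost its call.

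In end joining, Lig4 rose, Xrcc4, Xrcc5 and Xrcc6 fell, and Prkdc was not called, with a median of -0.19. That is 20.0% higher and 60.0% lower, beside 25.0% and 24.6% of all genes tested. With 5 genes no test was made of the difference. Xrcc5 and Xrcc6 are the subunits of Ku, the ring that slides onto broken ends. Xrcc5 was counted at 35.4, 34.7 and 34.5 CPM under 4OHT and at 45.7, 42.4 and 45.5 CPM under EtOH, and fell by 0.35 ± 0.05 (edgeR adjusted p = 7.56e-05). Xrcc6 had 111, 114 and 113 CPM under 4OHT and 136, 126 and 137 CPM under EtOH, and fell by 0.23 ± 0.04 (edgeR adjusted p = 0.00114). Neither subunit had overlapping arms, and in every pair both were lower in the library labelled 4OHT.

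Lig4, the ligase of end joining, and Xrcc4, the scaffold that holds it, were called in opposite directions. Lig4 had 11.9, 13.2 and 9.57 CPM in the libraries labelled 4OHT, against 10.0, 10.9 and 8.50 CPM in those labelled EtOH. The arms overlapped, yet the library labelled 4OHT was the higher in each pair, and the log2 fold change was 0.24 ± 0.07 (edgeR adjusted p = 0.0176). Xrcc4 fell by 0.19 ± 0.07 (edgeR adjusted p = 0.0294). Both calls were lost without the pair labelled fibroblasts or the pair labelled lymphoma, and that of Xrcc4 also without the pair labelled sarcoma. Prkdc, the catalytic subunit of the kinase that Ku recruits, was at 0.11 (edgeR adjusted p = 0.0714), and at 0.14 and called without the pair labelled fibroblasts (edgeR adjusted p = 0.0374).

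Of the 3 Fanconi genes, Fanca rose while Fancd2 and Fanci fell. That is 33.3% higher and 66.7% lower, beside 25.0% and 24.6% of all genes tested, a difference that was not tested. Fanca belongs to the core complex that attaches ubiquitin to the Fancd2 and Fanci pair. It was counted at 48.3, 47.8 and 48.5 CPM under 4OHT and 32.9, 37.1 and 33.7 CPM under EtOH. The arms were well separated, and the rise of 0.48 ± 0.05, a fold of 1.40, was the second largest change of the 40 genes (edgeR adjusted p = 1.15e-05). The genes Zfp276 and Gm20388 overlap Fanca on the opposite strand, and the strand setting of the counting was not given in the sources used here.

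Fanci had 39.7, 36.9 and 36.9 CPM in the libraries labelled 4OHT and 41.2, 43.3 and 43.8 CPM in those labelled EtOH. No value of one arm reached into the other, and Fanci fell by 0.18 ± 0.05 (edgeR adjusted p = 0.0138), a call lost without the pair labelled lymphoma or sarcoma. Fancd2 passed the threshold narrowly, falling by 0.11 ± 0.04 (edgeR adjusted p = 0.0444), and kept its call under 5 of the 12 alternatives; without the pair labelled lymphoma it was at -0.09 (edgeR adjusted p = 0.260).

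Of the 4 excision genes, Xpc, Ddb2 and Ercc1 fell and Xrcc1 was not called, with a median of -0.27. Over all genes tested 25.0% were called higher and 24.6% lower, and with 4 genes no test was made of the difference. Among the other excision genes read below, 21.7% were higher and 34.8% lower. Xpc and Ddb2 find lesions in DNA, Ddb2 chiefly those made by ultraviolet light, and Ercc1 is part of the nuclease that cuts beside them. Ercc1, the most abundant of the 4 per length in the mean over all 6 libraries though not under 4OHT, had 18.0, 19.4 and 17.3 CPM under 4OHT and 21.3, 22.7 and 23.0 CPM under EtOH (log2 fold change -0.29 ± 0.06, edgeR adjusted p = 0.00223). Xpc had 13.1, 15.4 and 13.2 CPM under 4OHT and 16.7, 17.3 and 16.9 CPM under EtOH (-0.29 ± 0.07, edgeR adjusted p = 0.00374). For both genes all 3 libraries labelled 4OHT were below all 3 labelled EtOH. Ddb2 fell by 0.26 ± 0.07 (edgeR adjusted p = 0.0119), and its arms did not overlap either. The calls of Xpc and Ddb2 were lost in DESeq2 and in both fits on TPM with limma. Xrcc1, the scaffold of single-strand break repair, averaged 47.3 ± 1.43 CPM under 4OHT and 47.3 ± 1.32 CPM under EtOH (SD, n = 3 libraries each). Ercc1 overlaps Cd3eap, and Ddb2 overlaps Acp2, on the opposite strand.

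Each labelled pair was also read by itself, where there is no replicate and no test. At a limit of 2-fold and a mean of at least 5 CPM, Atm was the 1 member higher in each pair, beside 2.77% of genes in the pair labelled fibroblasts, 2.79% in that labelled lymphoma and 2.82% in that labelled sarcoma. No member was 2-fold lower in any pair, where 0.590%, 0.690% and 0.691% of genes were. The CPM ratio of Atm was 2.70 in the pair labelled fibroblasts, with a 95% Clopper-Pearson interval of 2.60 to 2.81. It was 2.90 (2.79 to 3.02) in the pair labelled lymphoma and 2.77 (2.68 to 2.88) in that labelled sarcoma, and these intervals, which cover counting error only, overlapped. Fanca had ratios of 1.47, 1.29 and 1.44 in the pairs labelled fibroblasts, lymphoma and sarcoma. Brca2 had 0.773, 0.786 and 0.800, and Chek2 had 0.807, 0.796 and 0.752, each interval below 1.

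Counting error alone covers a good part of the smaller differences. The interval of the ratio lay above 1 for 11 genes, below 1 for 15 and around 1 for 14 in the pair labelled fibroblasts. In the pair labelled lymphoma it was above 1 for 13 genes, below for 10 and around 1 for 17, and in the pair labelled sarcoma above for 13, below for 11 and around 1 for 16. These intervals were not computed over all genes, so the counts have no background beside them. The sign of the ratio was the same in all 3 pairs for 33 of the 40 genes, while 74.3% of the 10857 genes with at least 5 CPM kept 1 sign. No such limit on level was set for the 40 genes, and Xrcc3 lay below it. Mdc1 was the exception in which intervals lay on opposite sides of 1, with ratios of 0.931 and 0.902 in the pairs labelled fibroblasts and lymphoma and 1.14 in that labelled sarcoma.

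**Figure D3:**
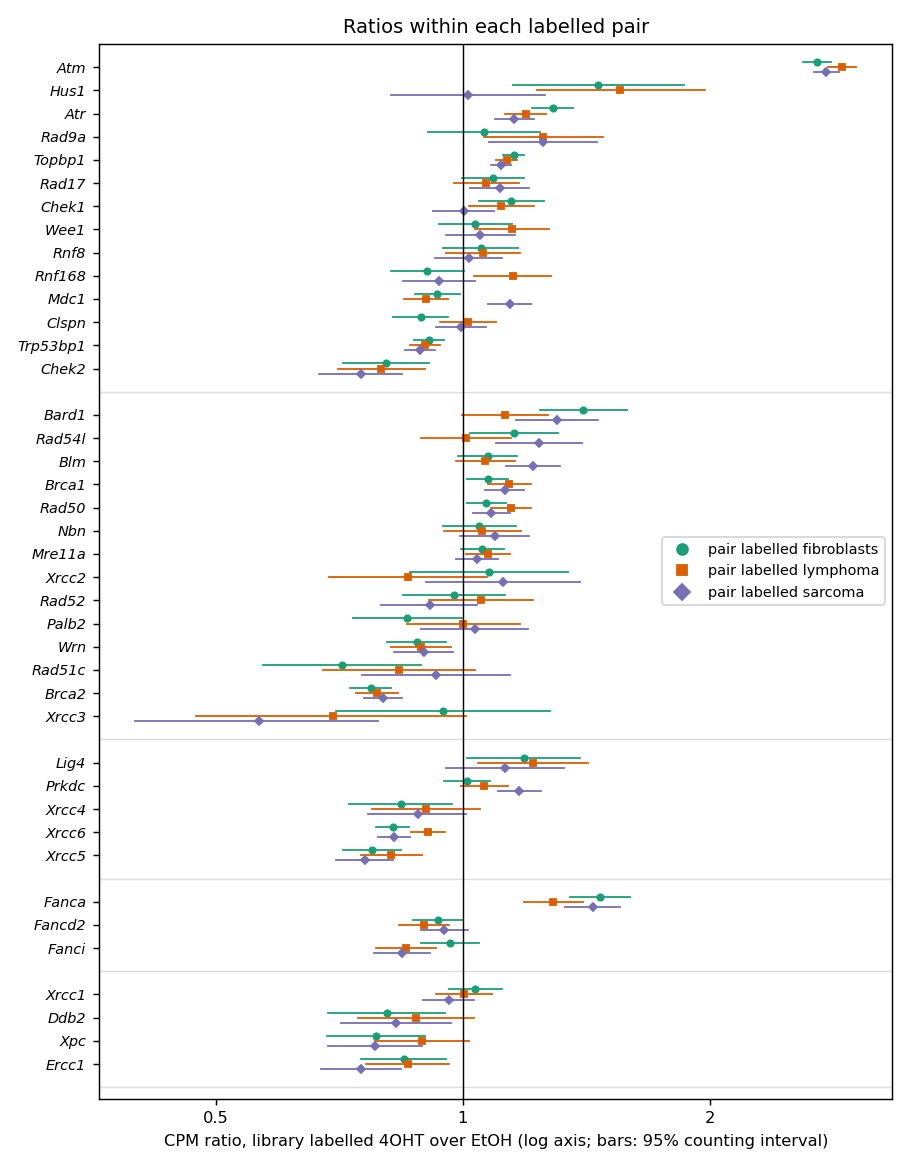
CPM ratio of each gene within each labelled pair, library labelled 4OHT over library labelled EtOH (x axis, log scale; bars are 95% Clopper-Pearson intervals, counting error only; 1 library per group). The 3 ratios of Atm lie between 2.70 and 2.90, and the ratios of Mdc1 fall on both sides of 1.

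Levels per length were compared in the deposited TPM, summed over targets of at least 500 bases, because short targets inflate TPM. That limit was set after seeing the data: Chek1 had a mean of 30.4 TPM over all targets and 10.8 TPM over the longer ones, and Palb2 12.0 and 1.88 TPM. Topbp1 was highest, at 34.0 to 38.5 TPM in libraries labelled 4OHT and 30.6 to 31.3 TPM in those labelled EtOH. Xrcc6 followed at 28.2 to 31.9 TPM under 4OHT and 32.2 to 35.2 TPM under EtOH, so these 2 genes changed places between the arms. Mre11a came next with means of 19.8 TPM under 4OHT and 18.2 TPM under EtOH. The lowest were Lig4, with means of 1.98 and 1.63 TPM, and Xrcc3, with 1.12 TPM under 4OHT and 1.48 TPM under EtOH. Atm averaged 16.2 TPM under 4OHT, above every member but Topbp1, Xrcc6 and Mre11a, and 5.65 TPM under EtOH, in the middle of the list.

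**Figure D4:**
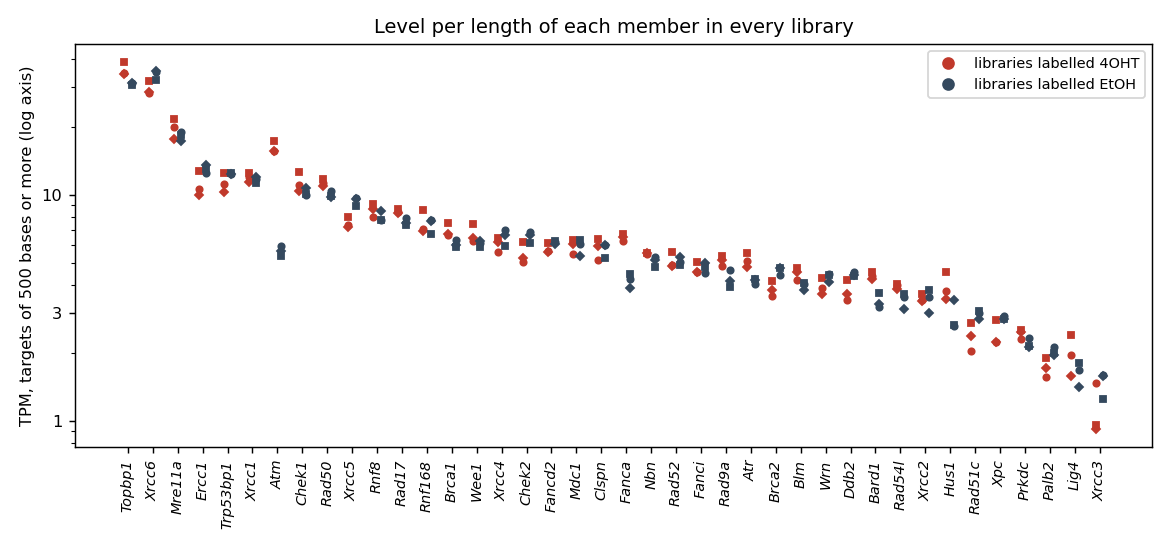
Summed TPM over targets of at least 500 bases (y axis, log scale) in every library for the 40 genes, ordered by mean; libraries labelled 4OHT are drawn left of those labelled EtOH, and symbols give the cell label as in the plot of CPM by library. Atm is the 1 gene whose arms lie far apart, with means of 16.2 TPM under 4OHT and 5.65 TPM under EtOH.

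Counts were next divided among the transcript targets of each gene. Kallisto splits reads by likelihood, so each share is an estimate, and no test was made. Among genes with at least 200 estimated counts in every library, 10 targets of 5 of the 40 genes held between 10 and 90% of the gene, and for 4 of these the shares in the 3 libraries labelled 4OHT all lay on 1 side of those labelled EtOH. The same held for 17.4% of the 5146 such targets over all genes. The 4 targets belong to Fancd2 and Palb2. Within a gene, a larger share of 1 target leaves less for the others, so the 4 are not independent of each other.

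Fancd2-201 is the full target, and Fancd2-208 lacks 1 stretch of 39 coding bases, positions 3844 to 3882 of 4353, at chr6:113586210-113586248 on the plus strand of GRCm38 (GENCODE M21). This stretch is shown because it is what tells the 2 targets apart.
Fancd2-201: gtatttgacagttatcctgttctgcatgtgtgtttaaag
Fancd2-208, without it, held 42.2, 44.1 and 41.9% of the gene under 4OHT and 30.8, 21.4 and 33.9% under EtOH. Fancd2-201, with it, held 57.1, 55.7 and 57.9% under 4OHT and 68.7, 78.3 and 65.8% under EtOH. The shorter target held a larger share in every library labelled 4OHT than in any labelled EtOH, by 14.1 percentage points in the mean, in a gene whose total fell slightly.

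Palb2-202 and Palb2-203 share their first coding bases and end differently. Palb2-202 ends in 149 bases at chr7:122110682-122110830 and 211 bases at chr7:122107518-122107728, and Palb2-203 in 138 bases of its own at chr7:122111633-122111770, all on the minus strand of GRCm38 (GENCODE M21). The stretches that begin at coding position 2956 are shown, the 149 bases of Palb2-202 and the 138 of Palb2-203. The last 211 bases of Palb2-202 are not shown.
Palb2-202: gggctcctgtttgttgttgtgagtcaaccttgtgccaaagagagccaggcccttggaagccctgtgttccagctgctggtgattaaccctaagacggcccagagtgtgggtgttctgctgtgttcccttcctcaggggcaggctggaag
Palb2-203: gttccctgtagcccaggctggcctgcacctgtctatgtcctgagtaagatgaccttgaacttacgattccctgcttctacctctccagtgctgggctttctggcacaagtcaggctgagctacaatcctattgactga
Palb2-202, the longest coding target, held 54.8, 56.9 and 61.5% of the gene under 4OHT and 39.8, 34.8 and 33.4% under EtOH. Palb2-203 held 27.4, 27.5 and 27.1% under 4OHT and 32.3, 44.0 and 41.6% under EtOH. The shares of both targets kept the arms apart, but Palb2 had only 304 to 319 estimated counts in the libraries labelled 4OHT and 338 to 409 in those labelled EtOH.

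**Figure D5:**
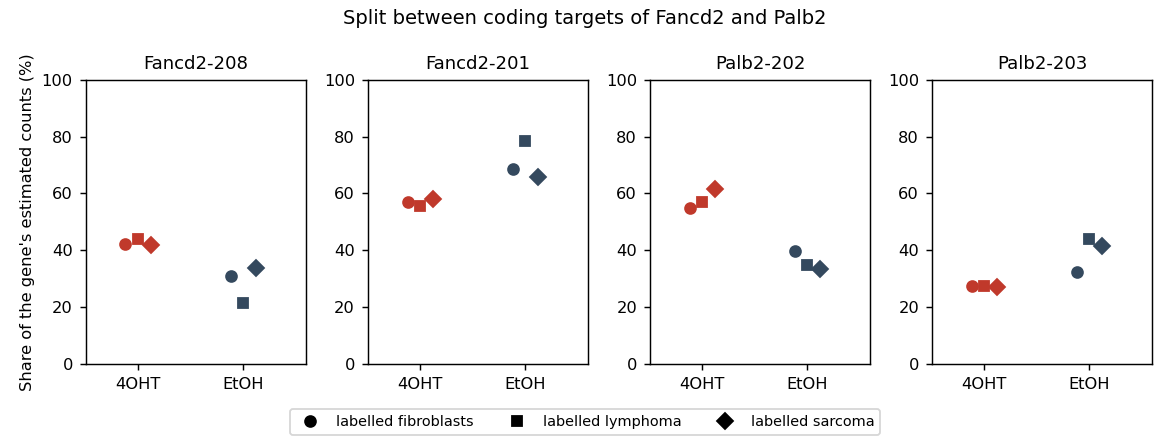
Share of a gene's estimated counts held by each of 4 coding targets (y axis, percent) in every library, labelled 4OHT left and EtOH right; symbols give the cell label. Fancd2-208 and Palb2-202 have larger shares in all 3 libraries labelled 4OHT, with means of 42.8% and 57.7% under 4OHT and 28.7% and 36.0% under EtOH.

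Many of these genes start beside another gene that is read in the opposite direction. Of the 40, 20 had such a neighbour within 1000 bases of the start, and 17 neighbours were tested. In 6 pairs both genes were called, 5 in the same direction and 1 in opposite directions. Over all 1544 such pairs of tested genes, 23.1% had both called and 16.7% both in the same direction, and no test was made of the difference. The 6 pairs are named here after their values were seen. Npat, whose start lies 307 bases from that of Atm and whose product drives histone genes, rose by 0.39 ± 0.04, to 86.9, 88.4 and 88.5 CPM under 4OHT against 65.9, 67.7 and 67.8 CPM under EtOH (edgeR adjusted p = 9.29e-06). The neighbour rose less than Atm, with a fold of 1.31. Hscb fell beside Chek2 (-0.56), Zfyve21 fell beside Xrcc3 (-0.50), Abhd13 rose beside Lig4 (0.29) and Ak6 rose beside Rad17 (0.23). Tex14 rose (0.92 ± 0.23) beside Rad51c, which fell. The level of Tex14 was low, at 1.12, 0.939 and 1.34 CPM under 4OHT and 0.527, 0.540 and 0.717 CPM under EtOH. In all, 17 of the 40 genes overlap a gene of the opposite strand that is among the genes matched in the files, 13 of them a protein-coding one, and 21 overlap any annotated gene of that strand.

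Of the 15 members with a mean target length over 3000 bases, 7 were called higher and 5 lower, with a median of 0.11. Of all genes of that length 32.3% were higher and 21.4% lower, with a median of 0.07. Of the 11 members under 1500 bases, 2 were called higher and 5 lower, with a median of -0.03, and of all such genes 21.8% were higher and 25.4% lower, with a median of -0.01. No test was made of the difference between these classes.

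RefSeq promoters (GRCm38.p6) were matched for 30 of the 40 genes, and the 250 bases before the start were searched on both strands for 6 motifs, some of which can overlap. The E2F site TTTCCCGC was found in 5 of 30 (16.7%), namely Bard1, Brca2, Chek2, Mdc1 and Xrcc6, and in 1.03% of all genes with a promoter. Of these 5 genes, Bard1 was called higher, Brca2, Chek2 and Xrcc6 were called lower, and Mdc1 was not called. CCAAT was found in 13 (43.3%; 37.5% of all genes), the interferon-type pattern GAAANNGAA in 6 (20.0%; 8.18%) and TTTGAA in 3 (10.0%; 18.3%). None of the 30 held the other E2F site TTTGGCGC or the AP-1 site TGACTCA. The 6 with GAAANNGAA were Brca2, Chek1, Rad52, Trp53bp1, Xrcc1 and Xrcc5, of which 3 were called lower and none higher. Of the 30 genes, 10 were called higher and 10 lower. Calls were not counted over all genes with either motif, so these splits have no background beside them. Such matches describe the letters only.

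A wider list of 154 genes of the same pathways was read in the same fit. Of the 153 tested, 35 were higher and 40 lower (22.9% and 26.1%), with a median log2 fold change of -0.04. These shares lay near the 25.0% higher and 24.6% lower of all genes tested, which are the background for each list below. Among 33 other checkpoint genes, 13 rose and 5 fell (39.4% and 15.2%). The largest rise was that of Cdkn1a, the inhibitor of cyclin-dependent kinases that p53 is known to induce, at 4.44, 4.70 and 4.26 CPM under 4OHT and 2.04, 1.49 and 0.903 CPM under EtOH (1.63 ± 0.19, edgeR adjusted p = 2.51e-05). Gadd45a, a stress-induced gene, rose by 0.85. The histone variant gene H2afx fell by 0.45, and Cdc25c, the phosphatase that opposes Wee1, fell by 0.37.

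Among 37 other recombination genes, 6 rose and 6 fell (16.2% each). Helq, a helicase, was at 0.60 and Rmi2, a partner of Blm, at 0.45. At the other end, Babam2, of a Brca1 complex, was at -0.49 and Rad51d at -0.36. Of 17 other end joining genes, 3 rose and 5 fell (17.6% and 29.4%). Dclre1c, the nuclease that opens hairpin ends, rose by 0.82 and Rif1, which acts with Trp53bp1, by 0.39, while Cyren and Paxx, which bind Ku, fell by 0.68 and 0.54. Among 20 other Fanconi genes, 3 rose and 8 fell, and 3 of the 4 named are subunits tied to the core complex: Faap24 rose by 0.43, and Faap20 and Faap100 fell by 0.53 and 0.46. The translesion polymerase Rev1 rose by 0.40.

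Of 46 other excision genes tested, 10 rose and 16 fell (21.7% and 34.8%). Gtf2h1, a subunit of the repair and transcription factor TFIIH, rose by 0.58 and Ercc8, of transcription-coupled repair, by 0.39, while the glycosylase Neil1 fell by 0.65 and Uvssa, also of transcription-coupled repair, by 0.60. Of 26 DNA replication genes, 11 rose and 8 fell (42.3% and 30.8%, median 0.09). Of 20 mitosis genes, 1 rose and 11 fell (5.0% and 55.0%, median -0.12), with sums of 5563 to 5652 CPM under 4OHT and 5989 to 6264 CPM under EtOH. Whether shifts in the cell cycle enter the values of the repair genes was not tested.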

How the data were processed

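Libraries were grouped by their labels, 1 per cell label and arm. The authors deposited, per transcript target, the estimated counts and the TPM that kallisto 0.43.0 gave on GRCm38, per the submitters' processing notes; neither the transcript set nor the strand setting is given in the sources used here. Of 76055 targets, 75049 matched GENCODE M21. The targets of Fancd2 and Palb2 compared here were as long as their coding bases alone. Other targets were not checked for this. The estimated counts were summed per gene and rounded, and the deposited TPM summed for levels and alternatives.

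The comparison was fitted with edgeR 4.0.16 over all 6 libraries (quasi-likelihood, two-sided), with TMM, filterByExpr by arm and the cell label as a block (2 residual and 9.23 prior degrees of freedom), with Benjamini-Hochberg adjustment over 15933 genes. SE is the absolute log2 fold change over the square root of F. The procedure was tested on simulated data. The pairing comes from the cell label; within pairs, the libraries' departures from their arm's mean had correlations of 0.0324, 0.139 and 0.141. The labels name no separate cultures, so a p-value here reflects only how these libraries vary, which may be technical. Members and lists were chosen with earlier results of these data known. Library values were given, in each pathway, for members with an absolute log2 fold change of at least 0.5, the 2 largest called changes and the highest TPM, and for Atr, Chek2, Brca1 and Brca2 added after seeing the data; of each other list the 2 highest and 2 lowest called genes were named. Alternatives used DESeq2 1.42.0, limma 3.58.1 on log2(TPM + 1) and log2(TPM + 0.1), other scalings and filters, no block, coding targets or genes only, and leaving out each pair. Software was R 4.3.3 and Python 3.11.15 (numpy 2.4.6, scipy 1.17.1, pandas 2.3.3). Total estimated counts per library are in the report; counting intervals are 95% Clopper-Pearson.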

Additional observations from a re-analysis of the deposited data

Results flagged for a closer look

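Mdc1, which gathers repair factors on chromatin beside breaks, was the 1 member whose ratios differed in direction between pairs beyond counting error. The CPM ratio of the library labelled 4OHT to that labelled EtOH was 0.931 in the pair labelled fibroblasts (95% Clopper-Pearson interval 0.875 to 0.991) and 0.902 in the pair labelled lymphoma (0.848 to 0.960), but 1.14 in the pair labelled sarcoma (1.07 to 1.21). In CPM, the libraries labelled 4OHT had 66.5, 69.3 and 72.6, and those labelled EtOH 71.4, 76.8 and 63.7, in the order fibroblasts, lymphoma and sarcoma. With 1 library per group the difference between pairs was not tested.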

How the results depend on the processing

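In DESeq2, 5 members were called higher and 6 lower, beside 2541 and 2488 of all genes, and 19 other pathway genes were called higher. With limma on log2(TPM + 1), 2 members were called higher and 1 lower, 1475 and 899 of all genes, and 9 and 9 other pathway genes; with log2(TPM + 0.1) the counts were 2 and 1, 1443 and 883, and 9 and 9. Of all calls 50.4% were higher in edgeR, against 62.1% and 62.0% in the 2 TPM settings. Trp53bp1, called lower in edgeR, had log2 fold changes of 0.0146 and 0.0151 there, not called. Leaving out 1 pair gave 7 to 10 members higher, 7 to 12 lower, and 19 to 31 other pathway genes higher, the lowest each time without the pair labelled lymphoma; without that labelled fibroblasts 22 of these were higher. The median of the recombination genes was 0.022 with no filter, 0.0986 and 0.109 in the TPM settings and 0.030 to 0.084 with a pair left out; that of the excision genes was -0.19 on log2(TPM + 1). Within pairs, library totals gave medians of 0.063 (lymphoma) and 0.0026 (sarcoma), and coding targets 0.074 (sarcoma), against 0.046, 0.022 and 0.022. With no replicate block, 10 members were higher and 13 lower, with Rad17, Lig4 and Xrcc3 no longer called. The median of all 40 members, 0.0082, was -0.018 with no filter, and that of all genes, 0.015, was between -0.0064 and -0.0051 in both coding-only settings and without the pair labelled fibroblasts. The medians of the 5 pathways kept their sign. Causes were not tested. Xrcc3 had the fewest counts.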
